A study of Mus musculus with 6 samples.

Results

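Blood and lymphatic endothelial genes were followed in whole fetal lungs of mice with and without Dppa2. The set holds 36 genes, listed by symbol: 22 pan-endothelial genes (16 for surface, junction and signalling proteins and 6 for transcription factors), 7 capillary genes, 3 arterial genes and 4 lymphatic genes. An array probe belonged to a gene when its accession led to that symbol. Of the 36 genes 35 had a probe, and 34 lay far enough above background to be tested, among 19856 features tested in all (13934 with a gene symbol). Tal1 had no probe under this naming. Both probes of Prox1, the master factor of lymphatic identity, were below background on all 6 arrays.

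The lungs came from embryos at embryonic stage E18.5, shortly before birth, with 1 embryo per array. Wild type embryos (n = 3) had the genotype 15-1+/+ and 15-2+/+. Knockout embryos (n = 3) had the genotype 15-1Flox/Flox and 15-2-/-, where ECAT15-1 is Dppa4 and ECAT15-2 is Dppa2, so every knockout carried the floxed Dppa4 allele beside the null Dppa2 allele. Both groups came from parents heterozygous for the pair of alleles, in a mixed line begun in 129Sv embryonic stem cells, bred to C57/BL6 and to a Cre or FLPe transgenic of unknown background. The labels give neither litter nor sex, and do not say how many litters were used, so p-values measure the spread between these 6 embryos.

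Endothelial cells line the blood and lymph vessels. ETS factors such as Erg, Fli1 and Ets1 and SOX factors such as Sox7, Sox17 and Sox18 are known to hold their identity and to bind regulatory DNA of junction and receptor genes. In the late fetal lung the capillary bed divides into thin, Car4-bearing cells that lie against the future air spaces and general capillary cells marked by Gpihbp1, Aplnr and Plvap, while arteries are marked by connexins and Sox17, and lymphatics by Prox1, Lyve1, Reln and Mmrn1.

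Between 63.3% and 68.8% of the probes of an array lay well above background, and no spot was saturated. Over all features 267 were called changed (limma, Benjamini-Hochberg adjusted p under 0.05), 143 higher and 124 lower. The split depended on the scaling and the variance model: median scaling gave 81 higher and 240 lower, quantile normalization 58 and 138, the values that the authors deposited 59 and 137, and a trended, robust variance 160 and 205. Leaving out wild type 1, 2 or 3 gave 34, 56 or 1921 calls, and leaving out knockout 1, 2 or 3 gave 59, 76 or 417. Wild types 1 and 2 had signal from Y-linked genes at all 6 probes and none from Xist at 4 probes, and the other 4 arrays had the reverse. Slide 1 held wild types 1 and 2 and knockout 3, slide 2 held wild type 3, and slide 3 held knockouts 1 and 2. Dppa2 differed by -1.23 on the log2 scale (limma adjusted p = 0.0615) and was above background on all 6 arrays, and Dppa4 was not. The endothelial markers Pecam1, Cdh5, Cldn5, Erg and Emcn were above background on all 6 arrays, as were the lymphatic markers Lyve1, Flt4 and Ccl21a, but not Prox1.

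The median difference of the endothelial genes between knockout and wild type lungs was near 0 under the main scaling and depended on the processing. None of the 34 passed the threshold of limma in either direction (0 higher and 0 lower), against 1.34% of all features. Levels here are log2 intensities relative to the array's 75th percentile, and every difference is knockout minus wild type on that scale with n = 3 arrays per group. The median difference was -0.0032 over the members and 0.00043 over all features, with 17 members positive and 17 negative. The members' median was -0.16 with normexp background correction, where that of all features was 0.15. It was -0.14 with median scaling, where that of all features was also -0.14. With a term for sex it was -0.11, where that of all features was -0.0085. The median size without regard to sign was 0.20 over the members and 0.21 over all features. The summed linear level of the members, in multiples of the 75th percentile, ran from 286 to 339 in wild type and from 292 to 341 in knockout lungs. In whole lung, fewer endothelial cells and less RNA per cell cannot be told apart.

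A few members had larger differences. An unadjusted p under 0.05 was found for 6 members, or 17.6%, against 25.8% of all features. Pecam1 and Ednrb were the positive ones, and Car4, Tmem100, Gja5 and Reln the negative ones. The groups did not overlap for Pecam1, Car4, Tmem100 and Reln, 11.8% of the members against 31.4% of all features. A difference of at least 1.5-fold was found for Car4, Ednrb, Tmem100 and Reln, 11.8% against 13.0%. All these shares were at or below those of the whole array. At the members' median standard error (SE) of 0.17, a difference of 0.97 on the log2 scale (1.96-fold) was needed to be called, and the 95% interval of 17 members lay within 1.5-fold either way.

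The median level of the members on each array overlapped between the groups. The median deviation of the 34 members from their wild type means was 0.12, -0.13 and -0.010 in wild types 1, 2 and 3 and -0.082, -0.19 and 0.065 in knockouts 1, 2 and 3. Wild type 1 and knockout 3 were thus the highest arrays and knockout 2 the lowest, while the median over all features lay between -0.024 and 0.020 on each array. For the pan-endothelial genes these medians were 0.11, -0.13 and -0.0052 in wild types 1, 2 and 3 and 0.046, -0.18 and 0.081 in knockouts 1, 2 and 3. For the capillary genes they were 0.17, -0.20 and 0.054 in the wild types and -0.16, -0.085 and 0.19 in the knockouts, and for the lymphatic genes 0.13, -0.099 and -0.034 against -0.061, -0.067 and 0.0036. The groups overlapped in each of these 3 classes. The difference of 14 members lay within 0.1 of 0 on the log2 scale.

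**Figure D1:**
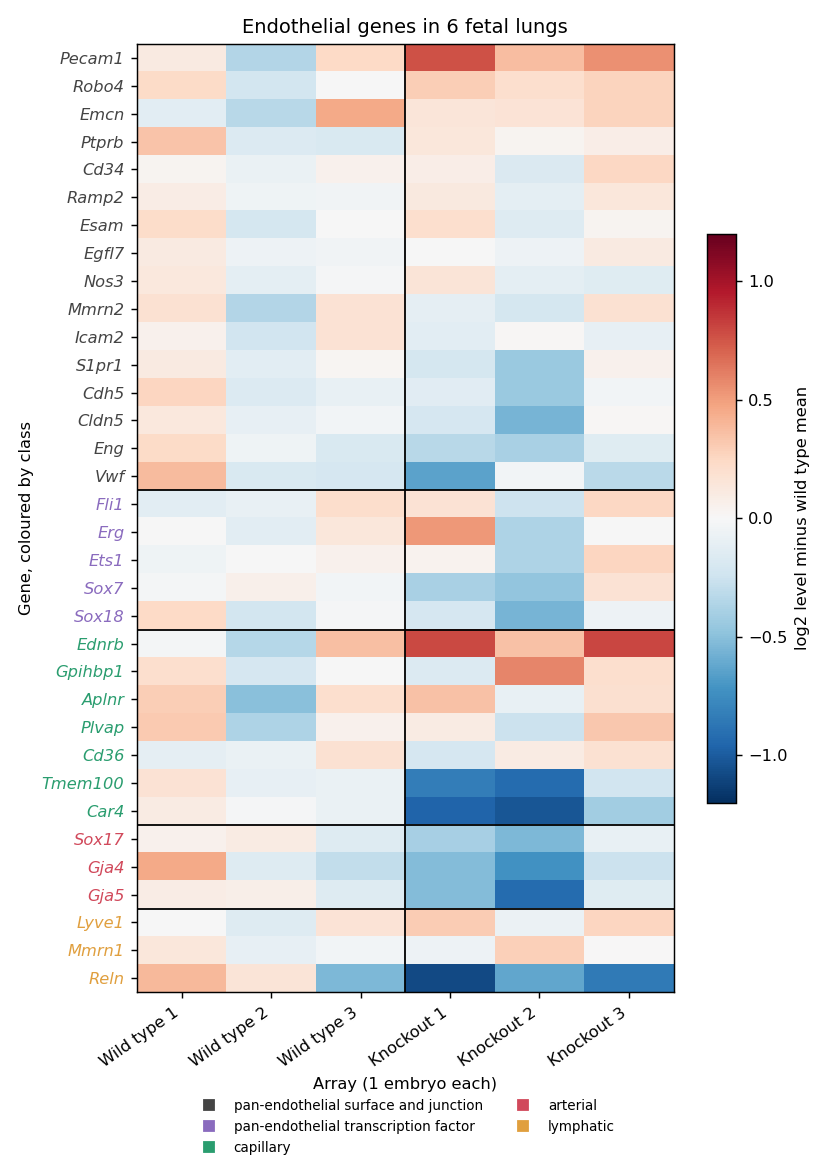
Level of each of the 34 tested endothelial genes (rows, coloured by class) on each of the 6 arrays (columns), as log2 level minus the gene's wild type mean. Red is above and blue below that mean; Car4, Tmem100, Reln and the 3 arterial genes are blue in knockouts 1 and 2, and Pecam1 and Ednrb are red in all 3 knockouts.

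**Figure D2:**
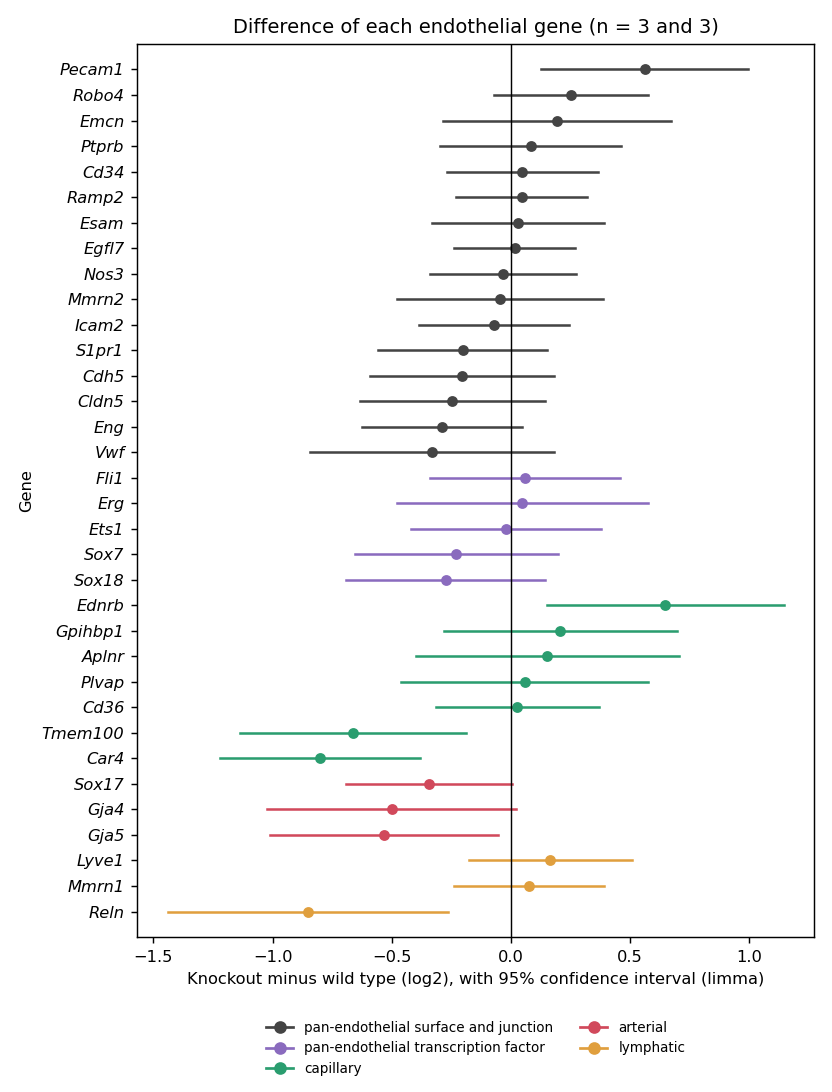
Difference between 3 knockout and 3 wild type lungs for each tested endothelial gene (log2, points), with the 95% confidence interval from limma (bars), grouped by class. The points lie on both sides of 0, with 14 of them within 0.1 of it. The lowest is Reln at -0.85 and the highest Ednrb at 0.65.

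The pan-endothelial genes for surface, junction and signalling proteins had differences from -0.33 to 0.56, on both sides of 0. Of 16 tested, 8 were positive and 8 negative, with a median of -0.0097, and 0 passed. The highest was Pecam1, the adhesion molecule of endothelial contacts, which is also carried by leukocytes and platelets. Pecam1 was at 0.81, 0.36 and 0.94 in wild types 1, 2 and 3 and at 1.47, 1.07 and 1.25 in knockouts 1, 2 and 3. Every knockout lay above every wild type. The difference was 0.56 (SE 0.18, 95% interval 0.12 to 1.00, limma adjusted p = 0.126).

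The lowest was Vwf, the clotting factor stored in endothelial cells and platelets, at -0.33 (SE 0.22, limma adjusted p = 0.369). Vwf was at 3.29, 2.72 and 2.70 in wild types 1, 2 and 3 and at 2.26, 2.87 and 2.58 in knockouts 1, 2 and 3. The groups overlapped, with knockout 2 above wild types 2 and 3, and another Vwf probe gave -0.21. The difference was -0.14 without wild type 1 and -0.18 without knockout 1.

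The junction and adhesion genes had small differences. Cdh5, the cadherin of endothelial adherens junctions, differed by -0.21 (-0.037 at another probe) and Cldn5, a claudin of tight junctions, by -0.25. The adhesion molecules Esam and Icam2 differed by 0.027 and -0.071, and Emcn, a mucin-like surface protein, by 0.19. Cd34, a sialomucin of vascular and progenitor cells, differed by 0.048. None of these passed, and their 95% intervals all included 0.

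Receptors, enzymes and secreted proteins did not pass either. Eng, a coreceptor for BMP ligands, differed by -0.29 (95% interval -0.63 to 0.045, limma adjusted p = 0.245), and Robo4, a vessel-stabilising receptor, by 0.25 (-0.070 to 0.57). S1pr1, a receptor for sphingosine-1-phosphate, differed by -0.20, and Ramp2, a partner of the adrenomedullin receptor, by 0.044. Egfl7 and Mmrn2, secreted matrix proteins of vessels, differed by 0.015 and -0.045. Nos3, the endothelial nitric oxide synthase, differed by -0.034. Ptprb, the endothelial receptor phosphatase, differed by 0.082, while another Ptprb probe, above background on 1 array, gave -0.54. The interval was narrowest for Egfl7 (-0.24 to 0.27) and Ramp2 (-0.23 to 0.32).

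The transcription factors of endothelial identity did not pass either. Of 5 tested, 2 were positive and 3 negative, with a median of -0.021 and 0 called. The lowest was Sox18, a SOX factor of early vessels and lymphatic precursors, at -0.27 (SE 0.18, limma adjusted p = 0.361). Sox18 was at 2.70, 2.25 and 2.45 in wild types 1, 2 and 3 and at 2.26, 1.91 and 2.41 in knockouts 1, 2 and 3. The groups overlapped, because wild type 2 lay below knockouts 1 and 3. Sox7, its close relative, differed by -0.23.

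The highest was Fli1, an ETS factor of blood and vessels, at 0.059. Fli1 was at 0.83, 0.87 and 1.17 in wild types 1, 2 and 3 and at 1.13, 0.71 and 1.21 in knockouts 1, 2 and 3, and the groups overlapped. Erg, the ETS factor that keeps endothelial identity, differed by 0.047 (SE 0.22), from a dim probe at -4.39 in wild type and -4.34 in knockout lungs. With normexp background correction the Erg difference was 0.90 (limma adjusted p = 0.601; over the alternatives, 0.459 to 0.991). Ets1 differed by -0.021, and its other probes gave 0.11 and -0.22. Knockout 2 was the lowest array for Sox7, Sox18, Erg, Fli1 and Ets1.

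The capillary genes were the most divided class. Of 7 tested, 5 were positive and 2 negative, with a median of 0.057 and a span from -0.80 to 0.65. The lowest was Car4, a carbonic anhydrase on the surface of capillary cells that face the air spaces. Car4 was at -0.66, -0.77 and -0.84 in wild types 1, 2 and 3 and at -1.72, -1.79 and -1.17 in knockouts 1, 2 and 3. All knockouts lay below all wild types, with knockout 3 nearest to them. The difference was -0.80 (SE 0.18, 1.74-fold, 95% interval -1.22 to -0.38), and its limma adjusted p of 0.0671 was the lowest among the members. Without knockout 3 it was -0.99 and passed (limma adjusted p = 0.0256; over the alternatives run, 0.0256 to 0.987). That fit sets knockouts on slide 3 against wild types on slides 1 and 2. It calls 417 features and cannot tell slide and genotype apart. Within slide 1 Car4 differed by -0.45, and with normexp background correction by -0.51.

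Tmem100, a membrane protein of lung vessels under control of BMP receptor signalling, had a like pattern over the arrays. It was at 0.47, 0.19 and 0.22 in wild types 1, 2 and 3 and at -0.54, -0.63 and 0.065 in knockouts 1, 2 and 3. Knockout 3 again lay close to the wild types and the groups did not overlap. The difference was -0.66 (SE 0.20, limma adjusted p = 0.109), and without knockout 3 it was -0.88 and passed (limma adjusted p = 0.0435; over the alternatives, 0.0435 to 0.988). That fit again sets slide 3 against slides 1 and 2, so slide and genotype cannot be told apart. Within slide 1 Tmem100 differed by -0.27.

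Ednrb, an endothelin receptor that is also a marker of the Car4-bearing capillary cells, had the opposite sign from Car4. Ednrb was at 0.55, 0.23 and 0.93 in wild types 1, 2 and 3 and at 1.36, 0.92 and 1.37 in knockouts 1, 2 and 3. Wild type 3 and knockout 2 were level, and the other arrays separated by group. The difference was 0.65 (SE 0.21, 1.56-fold, limma adjusted p = 0.123), and another Ednrb probe gave 0.60. Without wild type 3 it was 0.83 and passed (limma adjusted p = 0.0496; over the alternatives, 0.0496 to 0.987). That fit sets males against females only, calls 1921 features, and cannot tell sex and genotype apart; with a term for sex Ednrb differed by 0.28. Whether the differences of Ednrb and Car4 differ from each other was not tested.

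The general capillary genes did not differ beyond their spread. Gpihbp1, which anchors lipoprotein lipase to the capillary wall, differed by 0.21 (95% interval -0.28 to 0.70), and Aplnr, the apelin receptor, by 0.15 (0.33 at another probe). Plvap, the protein of capillary diaphragms, differed by 0.057 and Cd36, a fatty acid and thrombospondin receptor, by 0.026. These 4 genes had groups that overlapped.

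**Figure D3:**
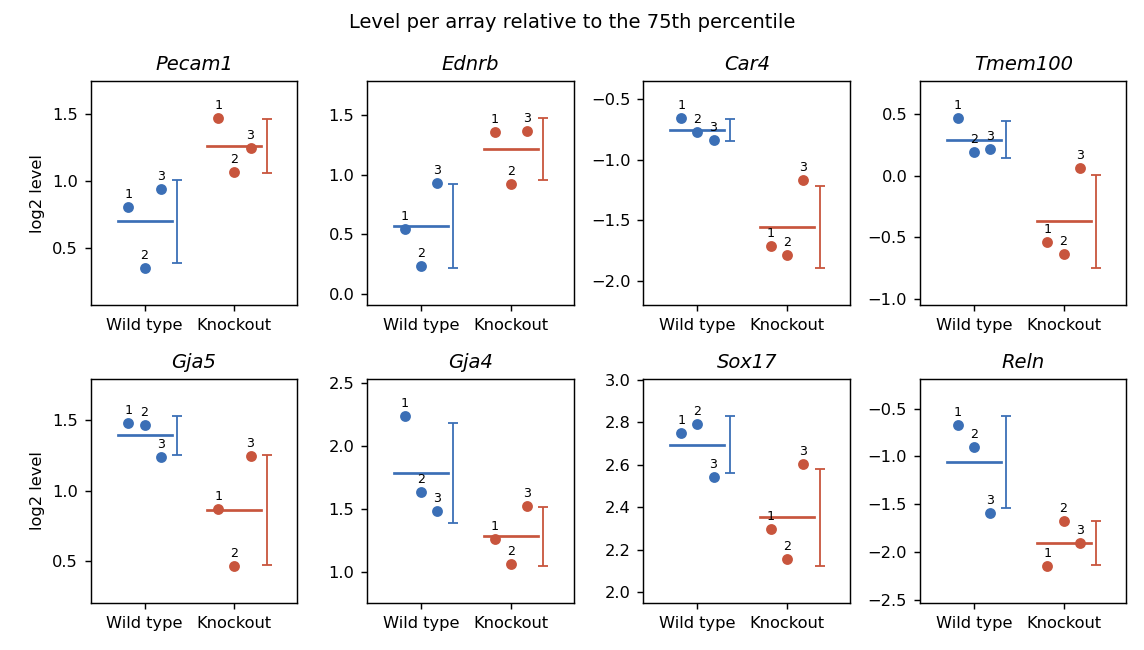
Level of 8 endothelial genes on each array (log2 relative to the array's 75th percentile; each panel has its own axis). Points are embryos, labelled by replicate number, with the group mean (line) and SD (bar); in the panels of Car4, Tmem100, Gja5, Gja4 and Sox17 the knockout with the highest point is knockout 3.

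The 3 arterial genes were all lower on average in the knockout lungs, and none passed. Their median was -0.50, against -0.021 for pan-endothelial, 0.057 for capillary and 0.076 for lymphatic genes. Without wild type 1 the arterial median was -0.32, and without the other arrays in turn -0.34 to -0.62. Gja5, the connexin of arterial endothelium and of atrial muscle, was at 1.48, 1.46 and 1.24 in wild types 1, 2 and 3 and at 0.87, 0.47 and 1.25 in knockouts 1, 2 and 3. Knockouts 1 and 2 lay below all wild types, and knockout 3 lay level with wild type 3. The difference was -0.53 (SE 0.20, limma adjusted p = 0.161), and a dim second probe gave -0.42. Without knockout 2 the difference was -0.34.

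Gja4, the other arterial connexin, was at 2.24, 1.63 and 1.49 in wild types 1, 2 and 3 and at 1.27, 1.06 and 1.53 in knockouts 1, 2 and 3, a difference of -0.50 (SE 0.22, limma adjusted p = 0.208) that was -0.27 without wild type 1. Sox17, the SOX factor of arterial identity, was at 2.75, 2.79 and 2.54 in wild types 1, 2 and 3 and at 2.30, 2.16 and 2.60 in knockouts 1, 2 and 3. It differed by -0.34 (SE 0.15, limma adjusted p = 0.199), with -0.23 and -0.16 at its other probes. Knockout 3 lay at or above wild type 3 at these probes, but below it at the second Gja5 probe (-5.75 against -5.44). The median of the arterial genes, as deviation from each gene's wild type mean, was 0.088, 0.070 and -0.16 in wild types 1, 2 and 3 and -0.52, -0.72 and -0.15 in knockouts 1, 2 and 3.

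Atrial muscle also carries Gja5, and heart muscle markers differed between the groups. Of 14 tested cardiac markers 0 were positive and 9 fell, where 1.34% of all features were called in either direction. The 9 were Myl2, Myl3, Myl4, Myl7, Tnnt2, Tnni3, Nkx2-5, Csrp3 and Pln. They are genes of the contractile apparatus, of calcium handling and of the heart field. Myl2 and Pln were above background on only 4 and 3 arrays. They entered the test through the wild type group, where they were high, so their falls are no separate support. Nkx2-5, a homeobox factor of heart development, fell by 1.74 (limma adjusted p = 0.00343). The list was chosen with these results known. The summed level of the 14 genes was 63.5 to 74.9 in wild type and 37.1 to 50.8 in knockout lungs. Myl4 and Myl7, genes of atrial muscle, fell by 1.73 and 1.47. The part of heart muscle in the Gja5 difference was not tested.

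Among the lymphatic genes, Reln was lower in every knockout, Mmrn1 overlapped between the groups, and Lyve1 depended on the probe. Reln, a secreted glycoprotein of lymphatic vessels and of neurons, was at -0.67, -0.91 and -1.59 in wild types 1, 2 and 3 and at -2.14, -1.68 and -1.91 in knockouts 1, 2 and 3. The groups did not overlap, though wild type 3 lay close to knockout 2. The difference was -0.85 (SE 0.25, 1.81-fold, 95% interval -1.44 to -0.26, limma adjusted p = 0.103), the largest in size among the members. Without wild type 3 it was -1.12 and passed (limma adjusted p = 0.0222; over the alternatives, 0.0222 to 0.987). That fit again sets males against females only, so sex and genotype cannot be told apart, and with a term for sex Reln differed by -0.32. With normexp background correction Reln differed by -0.37.

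Lyve1, a hyaluronan receptor of lymphatic cells and some macrophages, was at 2.60, 2.45 and 2.77 in wild types 1, 2 and 3 and at 2.91, 2.54 and 2.86 in knockouts 1, 2 and 3. The groups overlapped at this probe, with a difference of 0.16 (95% interval -0.18 to 0.51). At the other Lyve1 probe, also above background on all 6 arrays, every knockout (-0.30 to 0.22) lay above every wild type (-0.61 to -0.34), with a difference of 0.46 that did not pass when this probe was used for the gene (limma adjusted p = 0.138; over the alternatives, 0.138 to 0.998). Mmrn1, a multimerin of lymphatic cells and platelets, was at 0.12, -0.11 and -0.044 in wild types 1, 2 and 3 and at -0.071, 0.27 and -0.0068 in knockouts 1, 2 and 3. Its difference was 0.076 (-0.24 to 0.39). The 3 tested lymphatic genes thus held both the lowest difference of all members and positive ones.

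Of 14 further lymphatic genes, all tested, 7 were positive and 7 negative, with a median of 0.012 and 0 called. The 4 of smallest p, picked on these same arrays, split in direction. Their groups did not overlap, as was so for 31.4% of all features. The part of sex or slide in their differences was not tested. Foxc2, a forkhead factor of lymphatic valves, was at -2.91, -2.79 and -3.06 in wild types 1, 2 and 3 and at -3.55, -4.43 and -4.09 in knockouts 1, 2 and 3. The knockouts all lay below, by -1.11 (SE 0.22, limma adjusted p = 0.0596). Ccl21a, the chemokine that draws cells into lymph vessels, differed by -0.93 (limma adjusted p = 0.0880), with every knockout (1.28 to 2.13) below every wild type (2.36 to 2.90). Thy1 differed by -0.45 (limma adjusted p = 0.105). Stab2, a scavenger receptor of sinusoidal and lymphatic cells, differed by 0.90 (SE 0.20, limma adjusted p = 0.0650), with every knockout (-0.20 to 0.45) above every wild type (-1.05 to -0.72). Flt4, the receptor for VEGF-C that defines lymphatic cells, differed by -0.19.

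**Figure D4:**
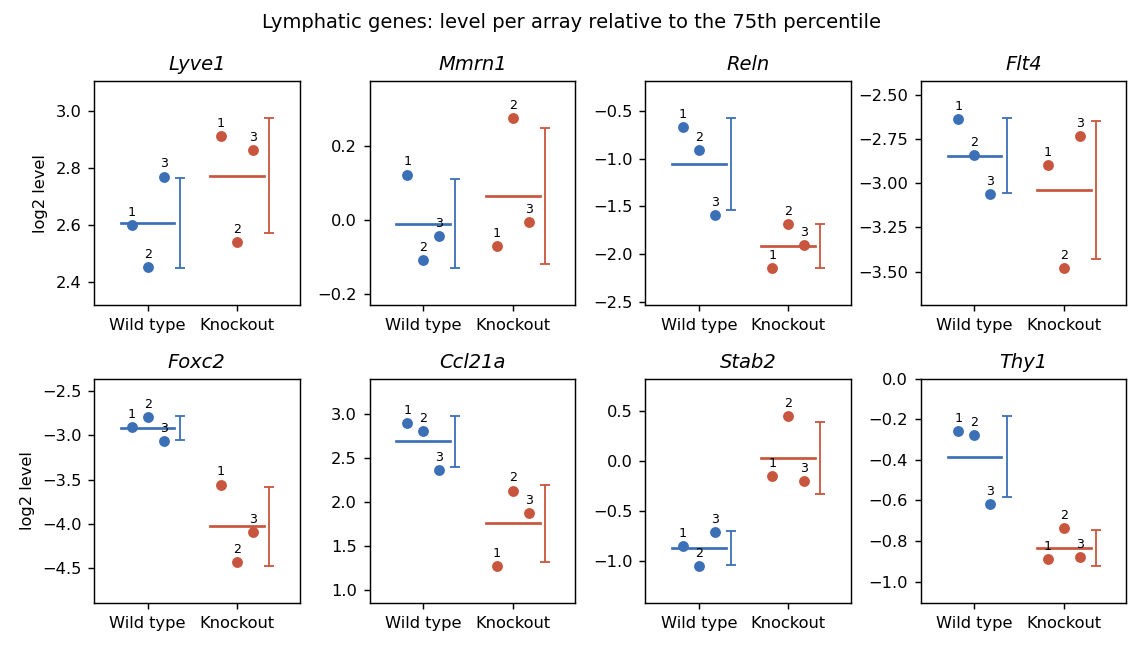
Level of 8 lymphatic genes on each array (log2 relative to the array's 75th percentile; each panel has its own axis), with points labelled by replicate number, the group mean (line) and SD (bar). Reln, Foxc2, Ccl21a and Thy1 lie lower and Stab2 higher in all knockouts than in all wild types, while Lyve1 (at the probe shown), Mmrn1 and Flt4 overlap. Foxc2, Ccl21a, Thy1 and Stab2 were picked for the smallest p of 14 further genes, and 31.4% of all features did not overlap.

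The promoters of the members with an unadjusted p under 0.05 are given here because ETS and SOX factors, themselves members, act on endothelial promoters. RefSeq windows of 250 bases before to 50 after the start, on assembly GRCm38.p6, matched 16 of the 36 members (22 windows), and Car4, Ednrb, Gja5 and Reln among the 6. They are printed 5′ to 3′ in the direction of the gene, with matches to the letters AGGAAG (ETS) or AACAAT (SOX), on either strand, in capitals. They lie at chr11:84957504-84957803 (+ strand, Car4), chr14:103843652-103843951 (- strand, Ednrb), chr3:97032152-97032451 (+ strand, Gja5) and chr5:22344656-22344955 (- strand, Reln).
Car4: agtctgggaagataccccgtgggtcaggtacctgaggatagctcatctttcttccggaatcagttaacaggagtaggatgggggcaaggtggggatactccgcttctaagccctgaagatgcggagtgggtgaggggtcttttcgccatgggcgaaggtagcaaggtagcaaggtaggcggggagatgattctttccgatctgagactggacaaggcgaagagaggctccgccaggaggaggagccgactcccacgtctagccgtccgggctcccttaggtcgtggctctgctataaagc
Ednrb: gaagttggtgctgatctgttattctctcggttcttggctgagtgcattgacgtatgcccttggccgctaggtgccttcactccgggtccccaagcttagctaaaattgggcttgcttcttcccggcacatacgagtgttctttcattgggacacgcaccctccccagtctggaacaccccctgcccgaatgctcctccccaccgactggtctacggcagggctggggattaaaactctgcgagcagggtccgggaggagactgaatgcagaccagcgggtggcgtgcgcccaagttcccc
Gja5: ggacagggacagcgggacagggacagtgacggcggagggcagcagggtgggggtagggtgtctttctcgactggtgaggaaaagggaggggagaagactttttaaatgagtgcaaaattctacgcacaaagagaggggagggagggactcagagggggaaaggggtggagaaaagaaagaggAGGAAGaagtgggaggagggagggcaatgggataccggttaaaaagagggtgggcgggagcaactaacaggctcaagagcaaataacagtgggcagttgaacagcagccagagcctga
Reln: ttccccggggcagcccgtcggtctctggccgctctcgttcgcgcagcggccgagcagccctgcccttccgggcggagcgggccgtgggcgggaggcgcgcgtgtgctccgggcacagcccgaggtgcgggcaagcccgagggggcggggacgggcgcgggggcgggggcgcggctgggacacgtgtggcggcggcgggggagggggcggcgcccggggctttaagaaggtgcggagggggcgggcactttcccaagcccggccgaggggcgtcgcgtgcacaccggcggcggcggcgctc

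A match to the ETS letters was found in 1 of these 4 windows, that of Gja5, and a match to the SOX letters in none. Over all member windows the ETS letters occurred in 8 of 22 (36.4%), against 35.4% of 32851 promoter windows, and the SOX letters in 4 of 22 (18.2%), against 10.7%. The Reln window had 80.7% G and C, against 57.3% for Car4, 58.7% for Ednrb and 55.7% for Gja5. These matches describe the letters of the window only. Other forms of an ETS or SOX site, such as GGAA beside other letters, were not searched for. Letters in lower case can hold such forms.

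The size of the differences depended on which arrays were set against each other. Wild type 3 and knockout 3 were the closest pair of arrays over the members (SD of their log2 differences 0.18, against 0.22 to 0.53 for the other pairs), though they carry different genotypes. Over all features the closest pair was wild types 1 and 2 (0.30). Within slide 1, where knockout 3 stood beside wild types 1 and 2, 27 of 34 members kept the sign of the full comparison. With a term for sex, which leaves the knockouts against wild type 3, 28 did, and for knockout 3 against wild type 3, which share the number at the start of the raw file name, 20 did. In all 3 comparisons 16 of 34 kept it. These comparisons reuse arrays of the full comparison, so a kept sign is no independent support. The share of all features that kept their sign was not counted.

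Pecam1, Ednrb, Car4, Tmem100 and Reln, picked for an unadjusted p under 0.05 on these same arrays, were among these 16. Gja5, picked likewise, was not. Car4 differed by -0.45 within slide 1, by -0.72 with the term for sex and by -0.33 between knockout 3 and wild type 3. Tmem100 differed by -0.27, -0.59 and -0.15 in the same order. Reln differed by -1.12 within slide 1 and by -0.32 and -0.31 in the others, larger in size against wild types 1 and 2 than against wild type 3. Ednrb differed by 0.98, 0.28 and 0.44, and Pecam1 by 0.67, 0.32 and 0.31.

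The arterial genes kept their sign within slide 1 and with the term for sex, but not between knockout 3 and wild type 3. That last comparison sets 1 array against 1. Gja4 differed by -0.41 within slide 1, by -0.20 with the term for sex and by 0.040 between knockout 3 and wild type 3. Gja5 differed by -0.23, -0.38 and 0.010, and Sox17 by -0.17, -0.19 and 0.060. By class, 0 of 3 arterial, 5 of 7 capillary, 2 of 3 lymphatic and 9 of 21 pan-endothelial genes kept the sign in all 3. Within slide 1 both wild types had Y-linked signal and the knockout had none, so sex and genotype cannot be told apart there. Without wild types 1 and 2, 0 features were called by limma (1372 at an unadjusted p under 0.05, 0 of them members).

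**Figure D5:**
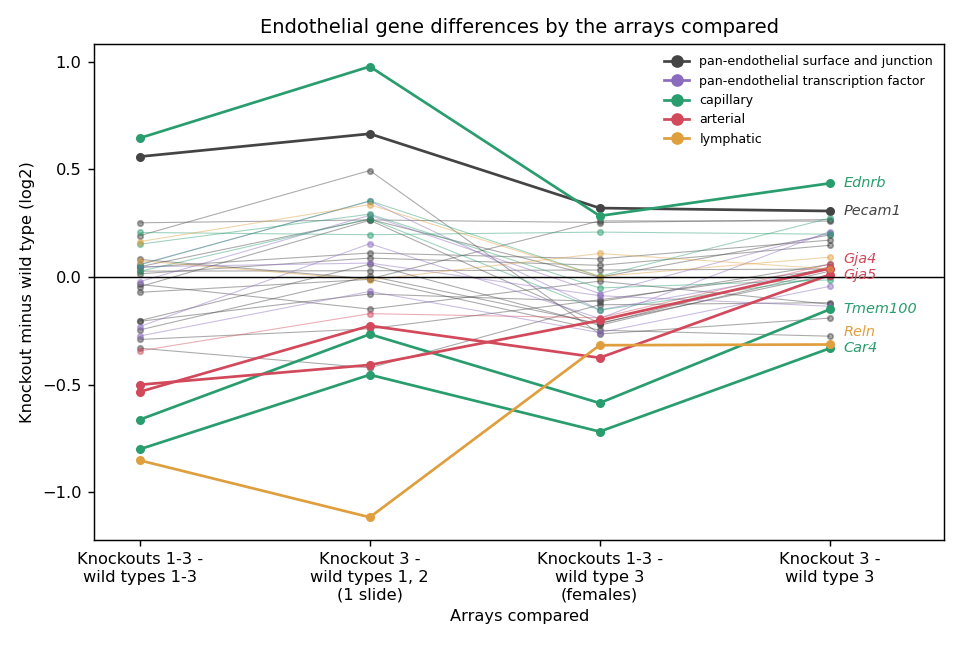
Knockout minus wild type difference (log2) of each of the 34 tested endothelial genes in 4 comparisons of arrays: all arrays, knockout 3 against wild types 1 and 2 on slide 1, the knockouts against wild type 3, and knockout 3 against wild type 3. Thick lines are named genes; Ednrb and Pecam1 stay above 0 and Car4, Tmem100 and Reln below 0 throughout, while Gja4 and Gja5 reach 0.

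Further genes of the same vessel types, which are not in the set, gave no called gene either. Of 25 tested further pan-endothelial genes 9 were positive (median -0.10). The smallest p were those of Clec14a, an endothelial lectin-like receptor (0.56, limma adjusted p = 0.0968), Lyl1 (-0.29), the angiopoietin receptor gene Tek (0.35) and the haematopoietic and endothelial factor gene Gata2 (-0.32). Of 16 further capillary genes 6 were positive (median -0.20). Hpgd, an enzyme of prostaglandin breakdown, differed by -0.73 (limma adjusted p = 0.127), Adgrl4, an adhesion receptor, by 0.75, Kitl, the ligand of the receptor Kit, by -0.35 and Apln, the ligand of Aplnr, by -0.36.

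Of 14 further arterial genes 4 were positive (median -0.11). Dll4, the Notch ligand of arterial and tip cells, differed by 0.44 (limma adjusted p = 0.189), opposite in sign to Gja4, Gja5 and Sox17. Bmx differed by -0.40, Vegfc by -0.20 and Cxcl12 by -0.31. The Bmx probe was dim, at -5.18 in wild type and -5.58 in knockout lungs, and above background on only 5 arrays. Of 9 venous genes 7 were tested and 4 were positive (median 0.056), with Nr2f2, the factor of venous identity, at -0.22, Ephb4, the venous ephrin receptor, at 0.30, Nrp2 at -0.18 and Slco2a1 at 0.075. The selectins Selp and Sele were below background on all 6 arrays.

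Markers of other cells that carry some of these genes were measured beside them. The platelet list had 0 of 10 positive differences and a summed level of 11.5 to 12.0 in wild type and 9.29, 6.77 and 11.1 in knockouts 1, 2 and 3. Knockout 2, with the lowest platelet sum, had the highest Vwf and Mmrn1 levels of the knockouts, and the lowest Pecam1 level of them. The leukocyte list had 1 of 12 positive, and sums of 27.2 to 37.7 in wild type and 20.8 to 26.6 in knockout lungs, while the differences of Pecam1 and Lyve1 were positive. Summed levels were 413 to 510 and 416 to 468 for epithelium, 179 to 195 and 162 to 208 for mesenchyme and pericytes, and 426 to 517 and 477 to 517 for erythroid cells. In the erythroid list the embryonic globin Hba-x rose by 2.41 (limma adjusted p = 0.0471). In the mesothelial list Upk1b, a uroplakin, fell by 1.47 (limma adjusted p = 0.0375), with sums of 111 to 130 and 105 to 114. Of 8 fat cell genes 4 were tested and 0 were positive. The proliferation list had 11 of 11 positive, at 27.2, 26.5 and 56.2 in wild types 1, 2 and 3 and 51.4 to 66.2 in knockout lungs. The defining markers of the platelet, erythroid, leukocyte, epithelial and mesenchymal lists were above background on all 6 arrays. The part of these lists in the members' differences was not tested.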

How the data were processed

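Total RNA of whole lungs, extracted with Trizol and labelled with Cy3 per the labels' protocols, was hybridised to Agilent whole mouse genome arrays of 44K features, 1 array per embryo. The deposited scanner files, made with Agilent Feature Extraction 10.7.3.1 on an mm9 design per the file headers, give an intensity per spot, subtracted for background and not scaled between arrays. The authors also deposited log2 values from GeneSpring GX 11 per the design text. Set against the scanner files, these were close to quantile-normalized log2 intensities relative to the wild type median, but not equal for every probe. Median absolute differences were 8.18e-05 to 0.000788, and correlations 0.992 to 0.997 per array. Column medians were 0 in wild types and 0.0108, -0.00698 and -0.000843 in knockouts 1, 2 and 3. The deposited values served as an alternative.

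Of 41174 probes 26690 (64.8%) received a symbol through RefSeq accessions, for 18217 genes. Outlier spots (77 to 110 per array) were left out, spots of a probe were averaged, and log2 intensities were set relative to each array's 75th percentile (1445 to 1595 in intensity). Probes were tested if every array of 1 group or of both called them well above background. Each gene was represented by its probe of highest mean over the 6 arrays. The comparison used limma 3.58.1 under R 4.3.3, two-sided and without covariates, with p-values adjusted over all features. The script was tested on simulated data. Precision is limited by the 3 arrays in each group.

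The members and gene lists were chosen with earlier results of these data known, so no p is given over a list. Named with their values on each array are members with an unadjusted p under 0.05 and, per class, the member of smallest p and those of highest and lowest difference. Other probes are given where they oppose the value or differ by 1.5-fold. Of other lists, the called genes and up to 4 genes of smallest p are named. Samples sharing a replicate number did not deviate together (correlations of -0.021, 0.041 and 0.027). Alternatives in scaling, background correction, background filter, choice of probe, variance model, blocks and arrays left out were run.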

Additional observations from a re-analysis of the deposited data

How the results depend on the processing

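None of the members was called under any alternative run except leaving out single arrays. The number of members called was 0 to 1 higher and 0 to 2 lower with 1 array left out: Ednrb and Reln without wild type 3, and Car4 and Tmem100 without knockout 3. Genotype cannot be told apart from sex in the fit without wild type 3, or from slide in the fit without knockout 3. The number of changed features, 267, ran from 34 to 1921 with 1 array left out. It was 47 with the replicate number as a block (the replicate block), 16 with the slide as a block, 17 with a term for sex, 28 with no filter on dim probes, and 92 with probes above background on at least 1 array. It was 0 when blocked on the file name number, 0 with normexp background correction on median signals (a signal column chosen after seeing the data), and 0 without wild types 1 and 2, also chosen after seeing the data. The replicate block called no member.

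Median scaling moved the median of all features to -0.14, normexp to 0.15, and no filter to 0.13. The members' median was -0.16 with normexp, -0.14 with median scaling and -0.11 with a term for sex. With that term the median of all features was -0.0085. The pan-endothelial median was -0.16 with either normexp or median scaling. The arterial median was -0.23 within slide 1 and with the slide as a block, -0.20 with a term for sex, and 0.040 within or blocked on the file name number. The lymphatic median was -0.066 with median scaling, -0.16 with no filter, and from -0.029 to 0.14 with 1 array left out.

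No member had passed in the full comparison, whether or not it turned sign. With normexp Erg was 0.90, Reln -0.37 and Car4 -0.51, and these members turned sign: Esam -0.15, Ramp2 -0.15, Cd34 -0.16, Egfl7 -0.25, Ptprb -0.11, Nos3 0.028, Fli1 -0.054, Cd36 -0.13, Gpihbp1 -0.0024 and Plvap -0.11. With median scaling, Esam -0.11, Ramp2 -0.10, Cd34 -0.093, Egfl7 -0.13, Ptprb -0.059, Erg -0.094, Fli1 -0.082, Cd36 -0.11, Plvap -0.084 and Mmrn1 -0.066. With quantile normalization, Mmrn2 0.032, Erg -0.092 and Ets1 0.061, and with the authors' deposited values Mmrn2 0.032, Erg -0.091 and Ets1 0.061. With the slide as a block, Cldn5 0.0042, S1pr1 0.060, Mmrn2 0.26, Ptprb -0.0088, Sox7 0.15, Ets1 0.29 and Mmrn1 -0.013. Blocked on the file name number, Cdh5 0.059, Cldn5 0.047, Emcn -0.19, Eng 0.036, S1pr1 0.027, Mmrn2 0.011, Sox7 0.21, Erg -0.14, Ets1 0.20, Cd36 -0.00025, Aplnr -0.013, Gja4 0.040, Gja5 0.010 and Sox17 0.060. With a term for sex, Emcn -0.26, Cd34 -0.00060, Erg -0.087, Fli1 -0.15, Cd36 -0.15 and Aplnr -0.051. With 1 array left out the ranges were Esam -0.078 to 0.14, Icam2 -0.19 to 0.017, Cd34 -0.050 to 0.16, Egfl7 -0.031 to 0.067, Mmrn2 -0.22 to 0.045, Ptprb -0.0076 to 0.25, Nos3 -0.13 to 0.030, Erg -0.19 to 0.26, Fli1 -0.035 to 0.21, Ets1 -0.16 to 0.15, Cd36 -0.051 to 0.14, Aplnr -0.10 to 0.30, Plvap -0.13 to 0.22 and Mmrn1 -0.029 to 0.14. Median scaling lowered the difference of every member by the same amount. The median of all features fell likewise, from 0.00043 to -0.14. With the slide as a block, the differences equalled those within slide 1. Blocked on the file name number, they equalled those within the file name number shared by both groups. The cause of the other changes was not tested.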
